A study of Rattus norvegicus with 36 samples.

Results

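The respiratory chain genes of the nuclear genome were followed in mammary cancers and normal mammary tissue of female Sprague-Dawley rats. A gene was taken as a member when a probe set carried 1 symbol and that symbol began with Ndufa, Ndufb, Ndufc, Ndufs, Ndufv, Uqcr or Atp5, was Sdha, Sdhb, Sdhc or Sdhd, or was Cox4, Cox5, Cox6, Cox7 or Cox8 with a suffix. This gave 86 genes on 96 probe sets, of 14218 genes on 20832 probe sets with 1 symbol each. The rule uses gene symbols and no measured value. A probe set entered the tests when it was above an intensity of 125.77 on at least 3 arrays, and 83 of the 86 genes did. The other 3, Cox6a2, Cox7b2 and Cox8b, are subunit isoforms known from other tissues and were above that intensity on 1, 1 and 0 arrays. The rule also took in some genes that are not subunits: 6 assembly factors of complex I (Ndufaf1, Ndufaf3, Ndufaf4, Ndufaf5, Ndufaf7 and Ndufaf8), the ATP synthase inhibitor Atp5if1, the supercomplex factor Cox7a2l and the pseudogene Cox6c-ps1.

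RNA from 36 tissues was measured on 36 single-colour arrays. The 3 normal tissues and 3 spontaneous cancers came from untreated rats, and 4 cancers came from rats given 1 Gy of whole-body gamma radiation at 7 weeks of age. MNU (N-methyl-N-nitrosourea, an alkylating mammary carcinogen) at 40 mg/kg gave 5 cancers with and 4 without an H-ras mutation, and PhIP (a heterocyclic amine formed in cooked meat) at 40 mg/kg/day by gavage, 5 days a week for 2 weeks, gave 1 with and 3 without. The chemical followed 3 days after 1 Gy in the combined groups, with 5 mutated and 4 nonmutated cancers after radiation plus MNU and 4 nonmutated cancers after radiation plus PhIP. The age at treatment was 7 weeks in every treated group. The spontaneous and radiation cancers were nonmutated. The diet of every rat, treated or not, held 23.5% corn oil once the animals were 9 weeks old. Whether any rat gave more than 1 of the cancers is not stated, so p-values measure only the spread between these samples, which may in part be technical.

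The respiratory chain passes electrons from NADH (complex I) and succinate (complex II) through coenzyme Q to complex III, cytochrome c and complex IV, where oxygen is reduced, and ATP synthase uses the resulting proton gradient to make ATP. Each complex except complex II joins subunits encoded in the nucleus with others encoded in mitochondrial DNA; complex I has a catalytic core and a shell of accessory subunits, and assembly factors help to build it without staying in it. Mammary tissue mixes epithelium with a large fat pad, and both fat and epithelial cells hold mitochondria. The 13 subunits encoded in mitochondrial DNA were not analysed here.

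Levels are log2(intensity + 42.755), and differences are on that scale. One cancer array, MNU nonmutated 4, stood apart in a measure of RNA quality, the hexokinase 3'/5' signal ratio. It was 12.3 there, against 1.66 to 4.66 on the other cancer arrays and 2.39 to 3.41 on the normal ones. The GAPDH ratio was 1.03 to 1.23 on normal arrays, 1.56 on MNU nonmutated 4 and 0.961 to 1.11 on the other cancer arrays. The beta-actin ratio was 1.37 to 1.71, 1.66 and 1.12 to 1.53 in the same order, highest on normal array 3. Whether RNA quality bears on the differences between cancers and normal tissue was not tested. The signal ceiling (a level near that of the brightest probe sets of an array) was 14.375 on normal array 3, against at most 13.908 on any cancer array. Luminal epithelial markers were present in both tissues: Krt8, a luminal keratin, was at 12.49 to 12.95 in normal tissue and 12.40 to 13.74 in cancers.

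Respiratory chain genes were mostly a little lower in cancers than in normal tissue. The members that fell were mainly accessory subunits of complex I and subunits of complex IV. The 2 members that rose were assembly factors of complex I, and neither was called in every setting tried. Of the 83 members, 24 fell (28.9%) and 2 rose (2.41%) at an adjusted p below 0.05 in the limma fit over all genes. Over all 11773 genes tested, 16.3% fell and 18% rose. The median member difference was -0.15, against 0.02 over all genes, and 69 of 83 members had a difference below 0 (51 after quantile normalization). The changes were small. No member differed by as much as 2-fold, while 987 of all genes did. The median SD of members over the 33 cancers was 0.18, against 0.26 over all genes. Members were also brighter, with a median level of 11.51 in cancers, against 9.34 over all genes. The 3 dim isoforms of complex IV known from other tissues had a median SD of 0.49. Whether the lower spread goes with the level was not tested. In 6 members every cancer was below every normal tissue (7.23%, against 4.24% of all genes): Ndufv3, Ndufb9, Ndufb3, Cox4i1, Cox6b1 and Cox6c-ps1.

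The count of members that fell depended on scaling and on single normal arrays. It was 14 of 83 after quantile normalization, near the share of all genes that fell in that setting (17.2%), and the median member difference was -0.04. With the signal ceiling of each array as a covariate it was 14 of 83, against 11.9% of all genes. It was 13 without normal array 2, 16 without normal array 3 and 26 without MNU nonmutated 4. Over all genes, 11.8%, 11.3% and 17.1% fell in these fits. In all 45 settings tried, 9 members stayed lower: Ndufv3, Ndufa7, Ndufa1, Ndufa9, Ndufb9, Ndufb3, Cox4i1, Cox6b1 and Cox6c-ps1. No member stayed higher in all of them, and after quantile normalization Ndufaf4, Cox6b2 and Uqcrh were the members that rose.

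**Figure D1:**
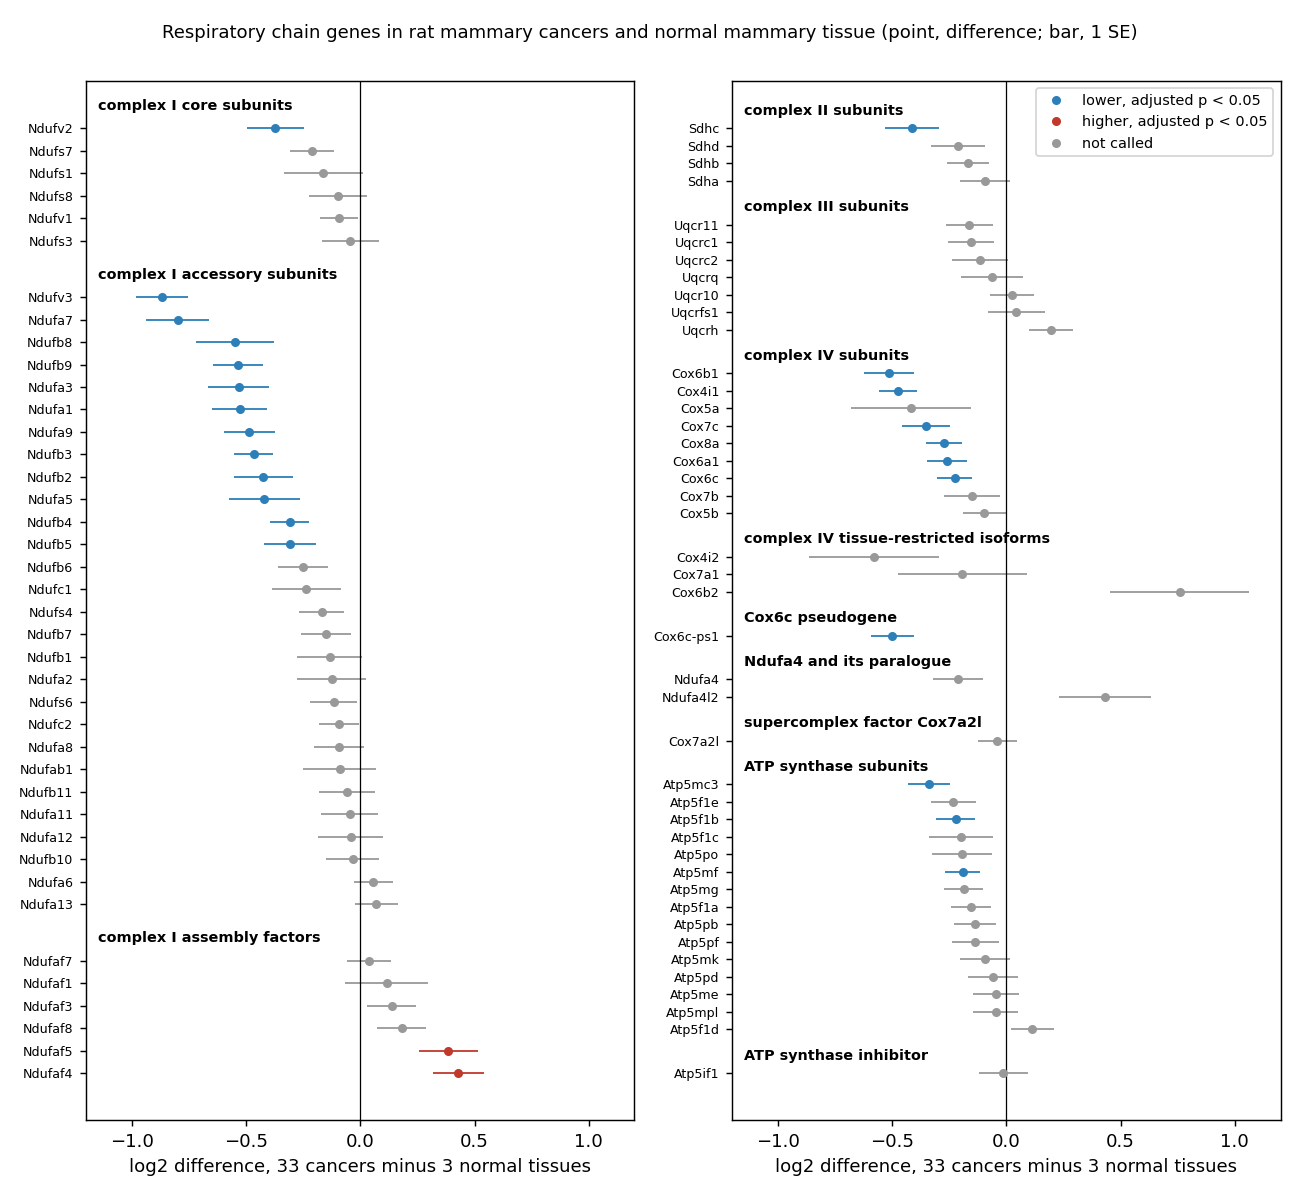
Log2 difference between 33 cancers and 3 normal tissues for each of the 83 members, by role; points are differences, bars 1 SE, and colours mark adjusted p below 0.05. Accessory subunits of complex I and subunits of complex IV hold 12 and 6 of the 24 falls (10 and 2 after quantile normalization), and both rises are assembly factors, of which Ndufaf5 was not called after quantile normalization.

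Among the accessory subunits of complex I, which surround its core and stabilise it, 12 of 28 fell and none rose. Ndufv3, a small subunit of the part that binds NADH, had the largest fall. It was at 11.28, 11.26 and 11.06 in the normal tissues and between 9.75 and 10.70 in the cancers, with a median of 10.36. All 33 cancers were below all normal tissues, and the difference was -0.87 ± 0.11 (SE; 33 and 3 samples; adjusted p = 1.31e-06). Its 2 probe sets had differences of opposite sign. The dimmer one went from 8.08 to 8.35, a difference of 0.27 ± 0.14 (adjusted p = 0.135 in a fit over all 16370 kept probe sets), and the mean of both probe sets gave -0.30 (adjusted p = 0.028).

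Ndufa7, of the arm that reaches into the matrix, was at 11.58, 11.99 and 11.64 in normal tissue and at 10.46 to 11.69 in cancers, with a median of 10.93. Of the cancers, 32 were below every normal tissue, and the difference was -0.80 ± 0.14 (adjusted p = 5.08e-05). Its dimmer probe set differed by -0.11 (adjusted p = 0.547), and the mean of its probe sets gave -0.46, which was called. Ndufb9, a subunit of the membrane arm, was at 12.67, 12.71 and 12.82 in normal tissue. Its cancers ran from 11.69 to 12.52 and did not overlap with normal tissue (difference -0.53 ± 0.11, adjusted p = 0.000477, and -0.35 after quantile normalization). Ndufb3, also of the membrane arm, was at 11.95, 12.12 and 11.96 in normal tissue and at 11.22 to 11.79 in cancers, again with no overlap (-0.47 ± 0.09, adjusted p = 0.000134).

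Ndufa1, a small membrane subunit needed for assembly of complex I, was at 12.67, 12.91 and 12.62 in normal tissue and at 11.94 to 12.83 in cancers. Its difference was -0.53 ± 0.12 (adjusted p = 0.00119) and -0.33 after quantile normalization, with 32 cancers below all normal tissues. Ndufa9, which sits where the arms of the complex meet, was at 11.52, 11.49 and 11.14, against 10.65 to 11.21 in cancers (-0.49 ± 0.11, adjusted p = 0.00126). Normal array 3 was the lowest of the normal arrays for Ndufa9 and reached into the range of the cancers. Ndufb8 fell by 0.55 ± 0.17 (adjusted p = 0.0146) and Ndufa3 by 0.53 ± 0.13 (adjusted p = 0.00306). Both lost the call in the fit adjusted for the signal ceiling and in the fit without normal array 2. The other 4 that fell, Ndufb2, Ndufa5, Ndufb4 and Ndufb5, differed by -0.42, -0.42, -0.31 and -0.31. The remaining 16 accessory subunits ranged from -0.25 (Ndufb6) to 0.07 (Ndufa13). The count of accessory subunits that fell was 10 after quantile normalization, 9 with the signal ceiling and 7 without normal array 2.

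The core subunits of complex I carry the flavin and the iron-sulphur clusters along which electrons move. Ndufv2, which holds 1 of the clusters, was the 1 of 6 that fell (16.7%, near the 16.3% of all genes). It was at 11.71, 11.97 and 11.99 in normal tissue and at 11.13 to 12.08 in cancers (-0.37 ± 0.13, adjusted p = 0.023), and the groups overlapped. The call was lost after quantile normalization, with the signal ceiling, and without normal array 2 or 3. Ndufv1, which binds NADH and the flavin, differed by -0.09 ± 0.08. Ndufs7, next to the site of coenzyme Q, differed by -0.21 ± 0.10 (adjusted p = 0.0844). Ndufs1, Ndufs8 and Ndufs3 differed by -0.16, -0.10 and -0.04, and all 3 changed sign without normal array 2.

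Among the assembly factors of complex I all 6 had a difference above 0 (5 of 6, without Ndufaf7, after quantile normalization, after median centring and with the signal ceiling), with a median of 0.16, and 2 rose. Ndufaf4, which works on an early intermediate of the complex, was at 10.003, 9.41 and 9.80 in normal tissue and at 9.80 to 10.49 in cancers, with a median of 10.16. It differed by 0.43 ± 0.11 (adjusted p = 0.00421), and the range of the cancers took in normal array 1 and, at its lower edge, normal array 3. Ndufaf5, a hydroxylase that modifies the core subunit Ndufs7, was at 8.58, 8.64 and 7.82 in normal tissue and at 8.38 to 9.05 in cancers. Normal array 3 was far below the other normal arrays, and the difference was 0.39 ± 0.13 (adjusted p = 0.0206). The call for Ndufaf5 was lost without normal array 3, after quantile normalization, after median centring and with the signal ceiling, and that for Ndufaf4 without normal array 2 (adjusted p = 0.13). Ndufaf8, Ndufaf3, Ndufaf1 and Ndufaf7 differed by 0.18, 0.14, 0.12 and 0.04 and were not called. The range of the 6 means per array was 8.71 to 8.86 in normal tissue and 8.77 to 9.24 in cancers.

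**Figure D2:**
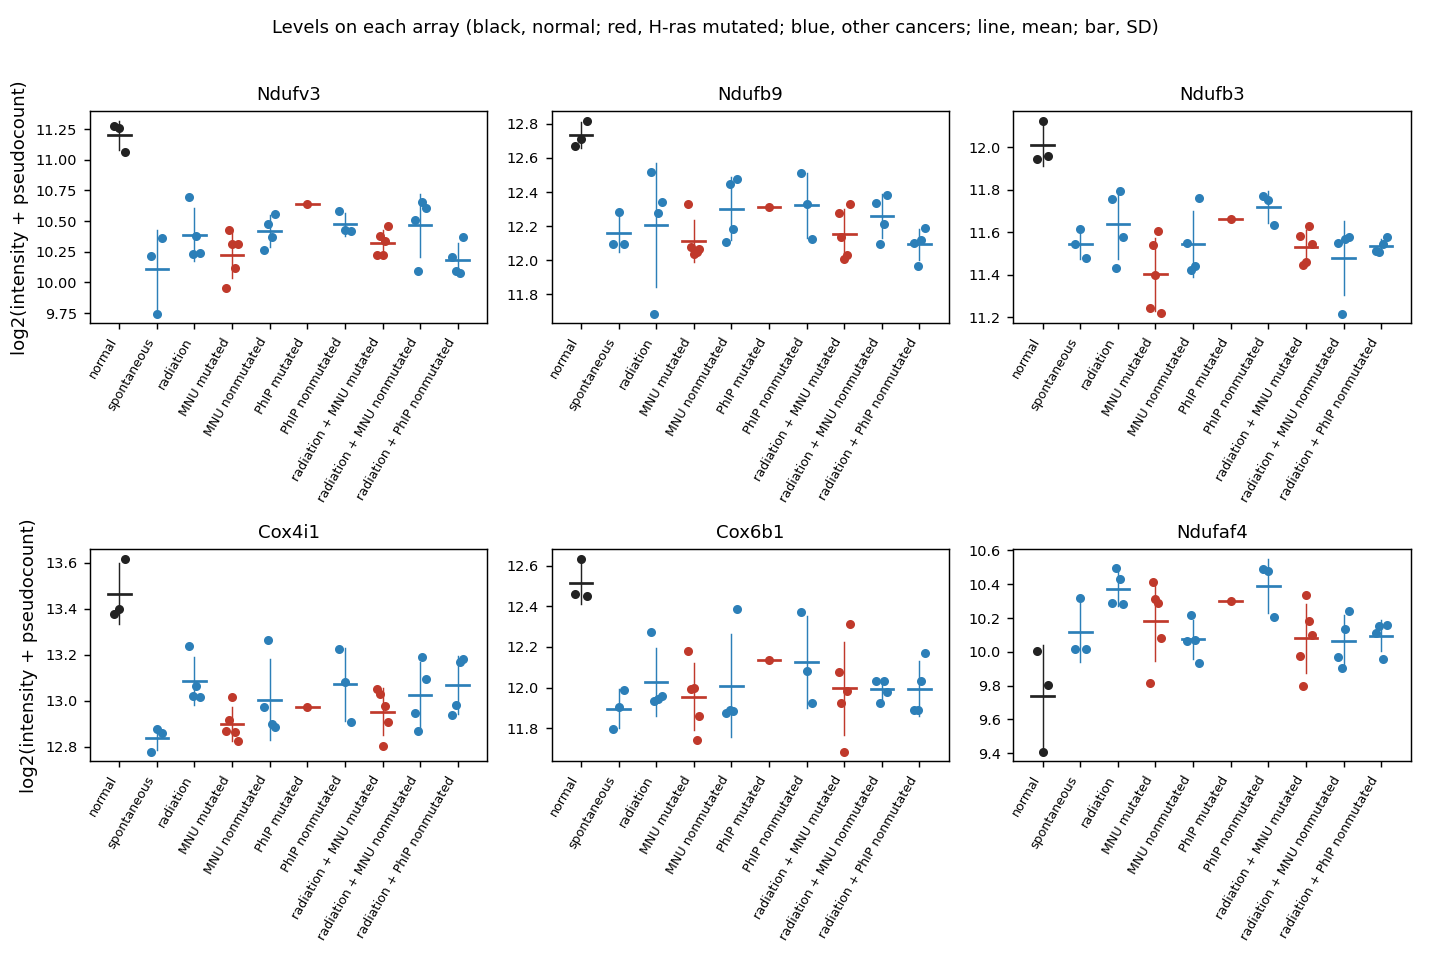
Log2 level of Ndufv3, Ndufb9, Ndufb3, Cox4i1, Cox6b1 and Ndufaf4 on each of the 36 arrays, by group; lines are group means and bars SDs. In the first 5 genes every cancer lies below all 3 normal tissues, and Ndufaf4 overlaps, with its cancers at 9.80 to 10.49.

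Complex II, or succinate dehydrogenase, is also an enzyme of the citrate cycle. Its membrane anchor Sdhc was at 11.83, 12.16 and 11.77 in normal tissue and at 11.06 to 11.96 in cancers, and fell by 0.41 ± 0.12 (adjusted p = 0.00824). The call was lost without normal array 2 (adjusted p = 0.129), and the count of complex II subunits that fell was 2 without normal array 3 and with the signal ceiling. The catalytic subunit Sdha differed by -0.09 ± 0.11, the iron-sulphur subunit Sdhb by -0.17 ± 0.09 and the other anchor Sdhd by -0.21 ± 0.12 (adjusted p = 0.169). A second, dimmer probe set of Sdhd was lower in cancers by 0.40 ± 0.14, which passed the test over probe sets (adjusted p = 0.0318).

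No subunit of complex III, which hands electrons from coenzyme Q to cytochrome c, was called (0 of 7). Uqcrc1 and Uqcrc2, the large core proteins that face the matrix, differed by -0.15 ± 0.10 and -0.12 ± 0.12, and Uqcrfs1, the Rieske iron-sulphur protein, by 0.04 ± 0.12. Uqcrh, the hinge protein beside cytochrome c1, had the highest value of the complex, 0.19 ± 0.10 (adjusted p = 0.115). It was at 12.29, 12.63 and 12.44 in normal tissue and 12.23 to 13.06 in cancers, and it was called as higher after quantile normalization only. A dimmer probe set of Uqcrc2 differed by -0.42 ± 0.16 (adjusted p = 0.0498), past the threshold where the brighter one was not.

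In complex IV, cytochrome c oxidase, 6 of 9 housekeeping subunits fell. All 9 had a difference below 0, against 6 of 9 after quantile normalization and 8 of 9 with the signal ceiling. Cox4i1, the common form of its largest nuclear subunit, was at 13.38, 13.40 and 13.62 in normal tissue and at 12.78 to 13.26 in cancers, with a median of 12.97. The groups did not overlap, and the difference was -0.47 ± 0.08 (adjusted p = 6.86e-05), or -0.23 after quantile normalization, where it was still called. Cox6b1, which joins the monomers of the dimeric enzyme on the side of cytochrome c, was at 12.46, 12.63 and 12.45 in normal tissue and at 11.69 to 12.39 in cancers, also without overlap (-0.51 ± 0.11, adjusted p = 0.000646). Cox7c, Cox8a, Cox6a1 and Cox6c, small subunits of the membrane part, fell by 0.35, 0.27, 0.26 and 0.23 (adjusted p = 0.0106, 0.00748, 0.0239 and 0.0238), and after quantile normalization none of these 4 was called and the sign of Cox6c turned. Cox5a, at 7.86 to 9.36 in cancers, differed by -0.42 ± 0.26 and was not called. Cox7b and Cox5b differed by -0.15 and -0.10. The 6 falls became 2 after quantile normalization, with the signal ceiling and without normal array 3, and the direction of the median stayed below 0 in each.

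The pseudogene Cox6c-ps1 was at 8.29, 8.26 and 8.35 in normal tissue and at 7.53 to 8.13 in cancers (-0.50 ± 0.09, adjusted p = 0.000152), with all cancers below all normal tissues. Its probe set can share sequence with Cox6c, so the source of this signal is uncertain. Ndufa4, first counted with complex I and now placed in complex IV, differed by -0.21 ± 0.11 (adjusted p = 0.137). Its relative Ndufa4l2, known as a gene induced in hypoxia, was at 7.16, 7.90 and 7.56 in normal tissue and at 7.29 to 8.73 in cancers, a difference of 0.43 ± 0.20 that was not called (adjusted p = 0.0945). Cox7a2l, which helps complexes III and IV to associate, differed by -0.04 ± 0.09 and changed sign after quantile normalization.

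None of the 3 kept isoforms of complex IV known from other tissues was called. Cox4i2, the form known from lung and hypoxia, was at 7.30, 9.09 and 8.49 in normal tissue and at 7.17 to 9.36 in cancers. Normal array 1 was lower than most cancers, with only 4 cancers below it, and the difference of -0.58 ± 0.28 was not called (adjusted p = 0.113). It was called without normal array 1 (adjusted p = 0.00946), when the difference was -1.08, and without MNU nonmutated 4. Cox7a1, the form of heart and muscle, was above the intensity filter on 4 arrays and differed by -0.19 ± 0.28. Cox6b2, the testis form of Cox6b1, was at 6.29, 5.90 and 6.43 in normal tissue and at 5.65 to 8.29 in cancers, with a difference of 0.76 ± 0.31 (adjusted p = 0.054). It was above the intensity filter on 9 of 36 arrays and on no normal or H-ras mutated array, so it entered the tests through nonmutated cancers, and most of its values are near the lower end of the scale. The difference passed the threshold in 10 of the other 45 settings, quantile normalization among them. Atp5mc1, Atp5mc2 and Cox7a2 lie on probe sets that also carry the symbol of a copy and were not members.

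ATP synthase makes ATP with its catalytic head and carries protons through a ring in the membrane. Of 15 subunits 3 fell (20%, near the 16.3% of all genes that fell) and none rose. Atp5mc3, 1 of the genes for the ring subunit, was at 13.05, 13.28 and 13.40 in normal tissue and at 12.64 to 13.25 in cancers (-0.34 ± 0.09, adjusted p = 0.00497). Atp5f1b, the catalytic beta subunit, was at 13.20, 13.47 and 13.70, against 13.01 to 13.51 in cancers (-0.22 ± 0.08, adjusted p = 0.0414). Normal array 1 lay in the middle of the cancers, and the call for Atp5f1b was lost under 8 settings and its sign turned (0.03) after quantile normalization. Atp5mf, of the membrane part, fell by 0.19 ± 0.07 (adjusted p = 0.0467). The alpha subunit Atp5f1a differed by -0.16 ± 0.09 (adjusted p = 0.171), and the other 11 ranged from -0.23 (Atp5f1e) to 0.11 (Atp5f1d). None of the 15 was called after quantile normalization, with the signal ceiling or without normal array 3. The inhibitor Atp5if1, which stops the enzyme from running backwards, differed by -0.01 ± 0.11.

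**Figure D3:**
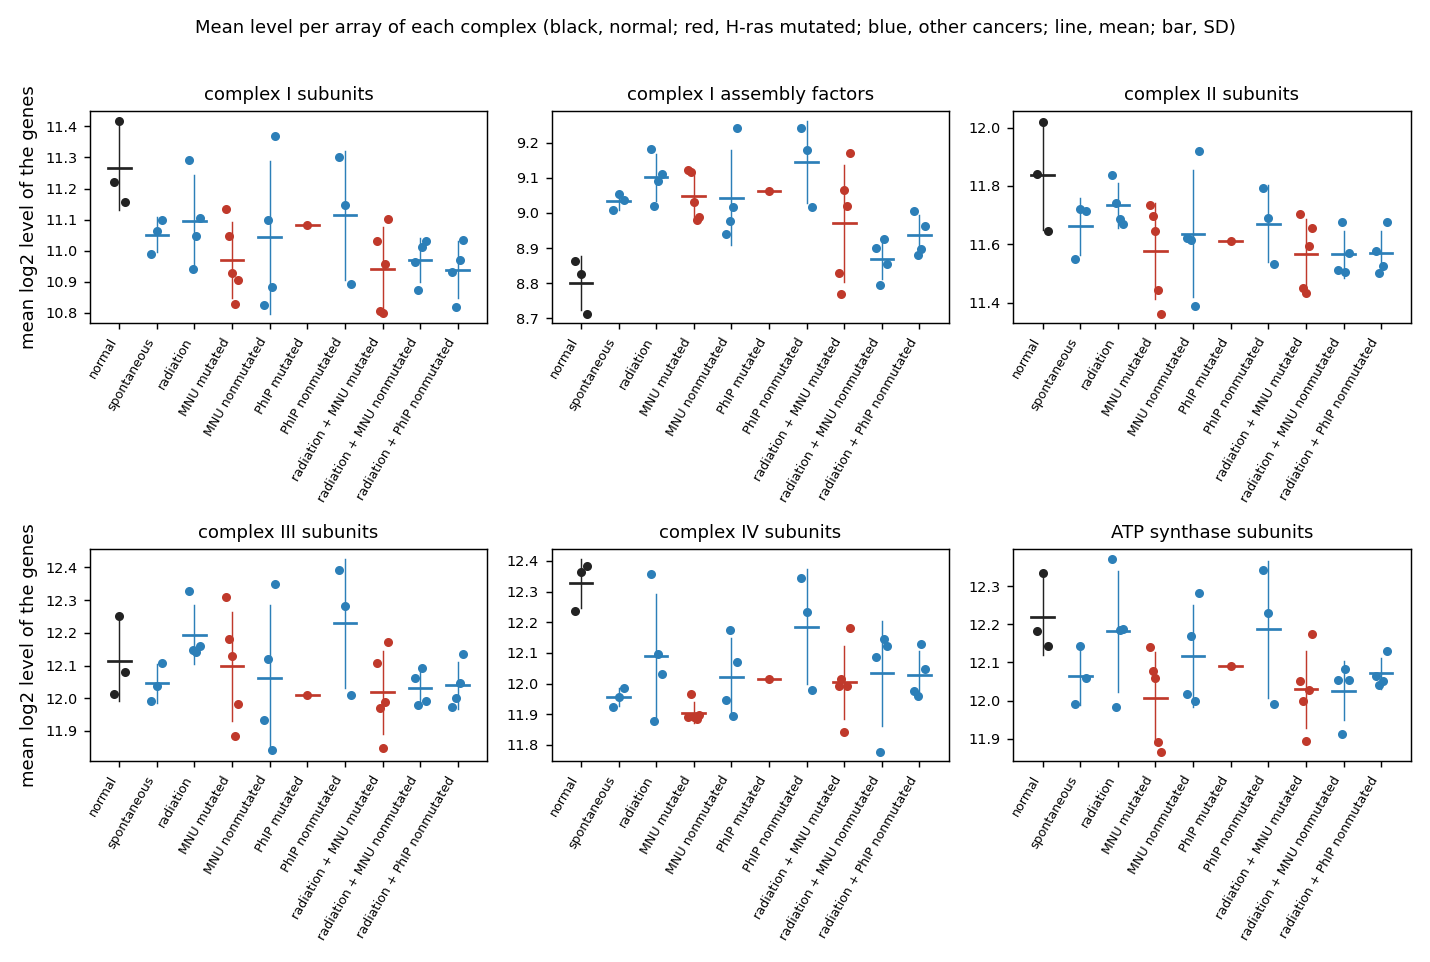
Mean log2 level of the members of each complex on each of the 36 arrays, by group; lines are group means and bars SDs. Complex IV arrays lie at 12.24 to 12.38 in normal tissue and 11.78 to 12.36 in cancers. Assembly factors lie at 8.71 to 8.86 and 8.77 to 9.24. The ranges of normal tissue and cancers overlap in every panel.

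The same side of normal tissue was seen in every group of cancers for the members that fell most. The group means of Ndufv3 were below the normal mean by 0.56 (the single PhIP mutated cancer) to 1.09 (spontaneous). Those of Cox4i1 were lower in all 9 groups, with differences from -0.63 in spontaneous to -0.38 in radiation cancers, and those of Ndufa7 ran from -0.99 after radiation plus PhIP to -0.43 in the PhIP mutated cancer. Ndufaf4 was above the normal mean in all 9 groups, by 0.32 (radiation plus MNU, nonmutated) to 0.65 (PhIP, nonmutated). These differences share the 3 normal tissues. The median member difference from normal tissue ran from -0.05 in radiation cancers and -0.06 in nonmutated PhIP cancers to -0.21 in mutated MNU cancers and -0.22 in mutated cancers after radiation plus MNU.

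The mean over all 83 members was 11.23, 11.39 and 11.21 on the normal arrays and 10.93 to 11.38 on the cancer arrays. The highest cancer arrays were PhIP nonmutated 2 (11.38), radiation 1 (11.38) and MNU nonmutated 4 (11.37), the last being the array with the hexokinase 3'/5' ratio of 12.3. The lowest were radiation plus MNU mutated 3 (10.93) and MNU mutated 4 (10.94). Complex IV was on average 12.33 ± 0.08 (SD, n = 3) in normal tissue and 12.02 ± 0.14 (SD, n = 33) in cancers, and complex I subunits were at 11.27 ± 0.14 and 11.01 ± 0.14. Assembly factors were at 8.80 ± 0.08 and 9.01 ± 0.12. Their lowest group mean among cancers was 8.87 ± 0.06 (SD, n = 4), in nonmutated cancers after radiation plus MNU. Their highest was 9.15 ± 0.12 (SD, n = 3), in nonmutated PhIP cancers. These 2 groups were picked as the extremes of the cancer groups, and the difference was not tested.

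The H-ras comparison set mutated against nonmutated cancers after MNU and after radiation plus MNU, 10 against 8. No member was called in the limma fit, against 0% of all genes. An unadjusted p below 0.05 was seen in 3 members (3.61%), against 886 of all genes (7.53%). Cox6b2 had the smallest p, with 0 of 10 mutated and 3 of 8 nonmutated cancers above the intensity filter. It entered the tests through nonmutated cancers, the side where it is higher, so its lead here is no separate support for a difference. Within MNU it was at 5.65 to 6.49 in mutated cancers, median 6.43, and at 6.23 to 7.90 in nonmutated ones, and within radiation plus MNU at 6.004 to 7.01 and 6.18 to 8.17. The groups overlapped within each treatment, and the mean difference was -0.68 ± 0.24 (adjusted p = 0.485). Uqcrh differed by 0.21 ± 0.08 (adjusted p = 0.501) and Ndufa7 by -0.24 ± 0.11 (adjusted p = 0.606).

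Whether that difference depended on radiation was asked with an interaction term. No member was called (0% of all genes), and 2 members (2.41%) and 391 of all genes (3.32%) had an unadjusted p below 0.05. The smallest p belonged to Atp5me, a small membrane subunit of ATP synthase, with an interaction of 0.41 ± 0.16, followed by Ndufaf5 with 0.42 ± 0.20 and Ndufb7 with 0.30 ± 0.17. Each had an adjusted p of 1.

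Radiation was compared with no radiation in 4 backgrounds (untreated, MNU mutated, MNU nonmutated and PhIP nonmutated). No member and no gene was called (0%), with 2 members (2.41%) and 1166 genes (9.9%) at an unadjusted p below 0.05. Ndufs1 differed by -0.25 ± 0.10 (adjusted p = 0.458), the assembly factor Ndufaf1 by -0.22 ± 0.11 (adjusted p = 0.501) and Cox7a1 by 0.33 ± 0.17 (adjusted p = 0.509).

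Spontaneous cancers were compared with the mean of the other 5 nonmutated groups. No member was called, against 0.068% of all genes (8 genes). An unadjusted p below 0.05 was seen in 5 members (6.02%), against 901 genes (7.65%). Cox6b2 again led. It was above the intensity filter on all 3 spontaneous arrays and on no normal or H-ras mutated array. It thus entered the tests through the groups where it is high, and its place here is no separate support for a difference. Cox6b2 was at 7.82, 8.29 and 8.23 in the spontaneous cancers, above the mean of every other group. The other nonmutated groups had means of 6.85 ± 0.49 (PhIP, n = 3), 6.93 ± 0.77 (MNU, n = 4), 7.07 ± 0.45 (radiation, n = 4), 7.25 ± 0.88 (radiation plus MNU, n = 4) and 7.39 ± 0.50 (radiation plus PhIP, n = 4). The mutated groups were at 6.25 ± 0.35 (MNU, n = 5), 6.56 ± 0.38 (radiation plus MNU, n = 5) and 6.44 (the 1 PhIP cancer), and normal tissue at 6.21 ± 0.27 (n = 3). Single cancers of the MNU (7.90) and radiation plus MNU (8.17) nonmutated groups reached the range of the spontaneous cancers. The difference was 1.02 ± 0.32 (adjusted p = 0.395). Cox4i1 differed by -0.21 ± 0.09 (adjusted p = 0.552) and Ndufv3 by -0.28 ± 0.12 (adjusted p = 0.561), so for these genes the spontaneous cancers had the lowest group means. With array weights, which give less weight to arrays that fit poorly, 532 of all genes (4.52%) and 3 members were called in this comparison: Cox6b2 (0.91, adjusted p = 0.0294), Cox4i1 (-0.21, adjusted p = 0.0437) and Atp5f1b (-0.21, adjusted p = 0.0447).

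An F test over the 6 nonmutated groups called no member and 0.00849% of all genes (1 gene). An unadjusted p below 0.05 was seen in 2 members (2.41%) and 1042 genes (8.85%). Ndufs1, Cox6b2 and Ndufa4l2 had the smallest p (adjusted p = 0.541, 0.554 and 0.566). For Cox6b2, which entered the tests through nonmutated cancers where it is high, this place is no separate support for a difference. Ndufa4l2 was highest in nonmutated PhIP cancers, at 8.49 ± 0.20 (n = 3), against 7.67 ± 0.30 (n = 4) after radiation plus MNU. With array weights the F test called 11.1% of all genes and 5 members: Ndufs1, Ndufab1, Uqcrq, Ndufa4 and Ndufaf4.

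**Figure D4:**
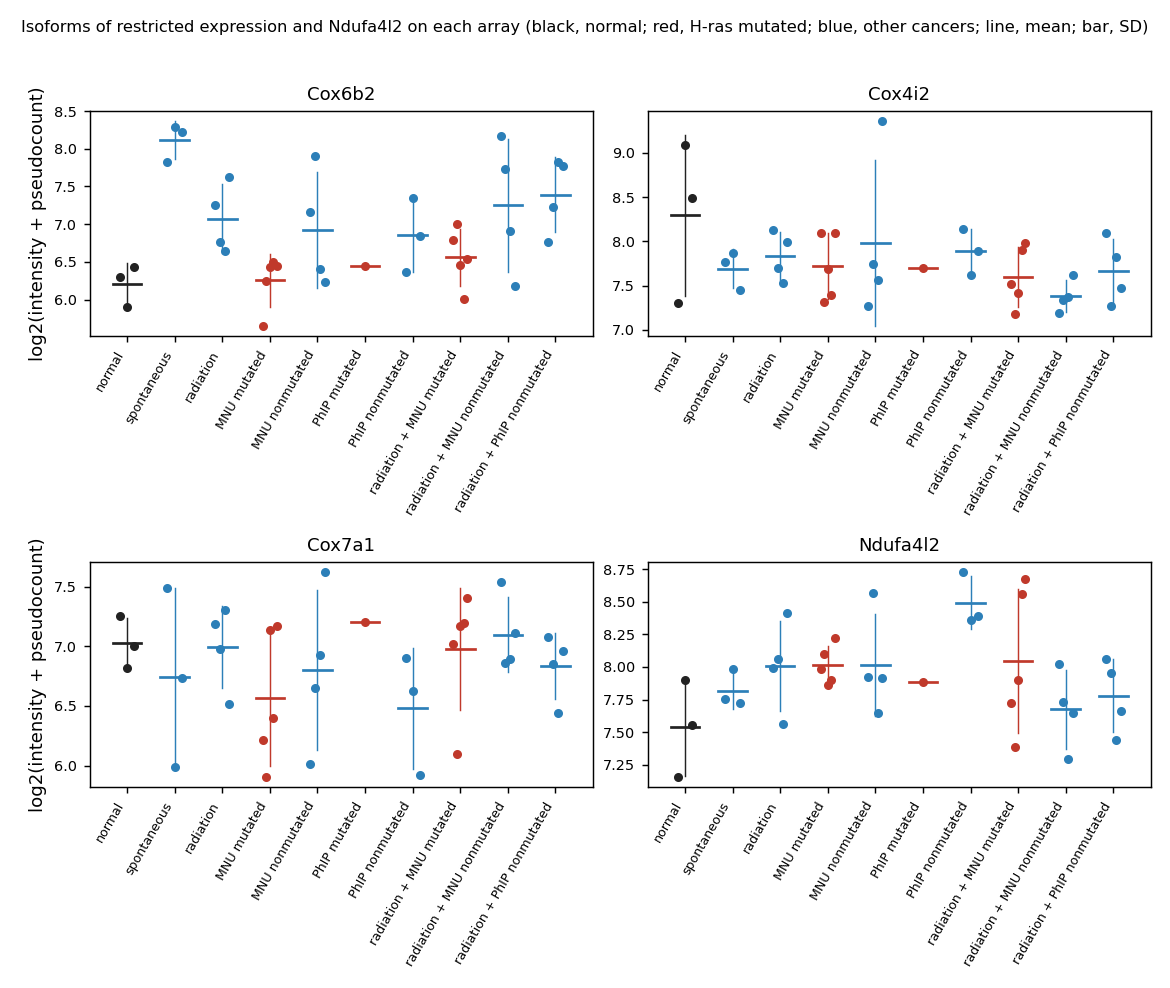
Log2 level of Cox6b2, Cox4i2, Cox7a1 and Ndufa4l2 on each array, by group; lines are group means and bars SDs. The 3 spontaneous cancers have Cox6b2 at 7.82 to 8.29, above the 3 normal tissues at 5.90 to 6.43, and the nonmutated groups spread widely between these levels.

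The region upstream of member genes was looked at for 4 short motifs known from promoters of respiratory genes, on both strands, in the 250 bases before and 50 after the start of each gene (RefSeq, GRCr8). Of the 86 members 78 were matched, among them 20 of the 24 that fell and both that rose. The NRF1 core GCATGCGC was in 11.5% of member windows and 2.47% of all 33469 windows, the ETS core CCGGAAG in 28.2% and 8.75%, the YY1 core AAGATGGC in 21.8% and 3.17%, and the ERR element TCAAGGTCA in 2.56% and 0.433%. Matches to different motifs did not overlap in the member windows (0 overlaps). Both members that rose, Ndufaf4 and Ndufaf5, held the NRF1 core, as did 7 members that were not called and none of the 20 that fell. Of those 20, 3 held the ETS core (Cox4i1, Cox8a and Ndufa1), 6 the YY1 core and 1 the ERR element. The 180 bases before the start of the members that rose and of 2 that fell, Cox8a and Atp5mc3, are given 5' to 3' on the strand of the gene, with motif matches in capitals, to show where the matches lie. They are at chr5:43401615-43401794 (plus strand), chr3:147961432-147961611 (plus), chr1:213833624-213833803 (minus) and chr3:79220665-79220844 (minus).
Ndufaf4: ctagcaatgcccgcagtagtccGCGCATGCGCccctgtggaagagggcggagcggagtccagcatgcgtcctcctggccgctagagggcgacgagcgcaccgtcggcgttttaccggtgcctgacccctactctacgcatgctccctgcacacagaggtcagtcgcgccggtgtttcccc
Ndufaf5: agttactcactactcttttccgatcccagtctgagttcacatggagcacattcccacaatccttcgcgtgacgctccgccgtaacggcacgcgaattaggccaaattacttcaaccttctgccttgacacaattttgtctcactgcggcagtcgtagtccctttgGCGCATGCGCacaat
Cox8a: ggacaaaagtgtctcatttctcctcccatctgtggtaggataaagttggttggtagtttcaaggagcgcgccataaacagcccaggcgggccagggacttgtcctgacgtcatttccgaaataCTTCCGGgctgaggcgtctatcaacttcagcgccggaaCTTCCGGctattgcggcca
Atp5mc3: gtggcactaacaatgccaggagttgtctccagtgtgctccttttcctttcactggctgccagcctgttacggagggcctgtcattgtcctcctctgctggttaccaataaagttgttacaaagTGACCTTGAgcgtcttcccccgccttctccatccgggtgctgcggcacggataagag

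In Ndufaf4 and Ndufaf5 the match is GCGCATGCGC, which reads the same on both strands and so holds the NRF1 core on each. Cox8a has the ETS core at 2 places in the stretch shown and a YY1 core that crosses the start and so is not shown, and Atp5mc3 has the ERR element. A match describes letters only.

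Genes that work beside the respiratory chain were taken from lists of mitochondrial functions. Fatty acid oxidation, which feeds electrons into the chain, had the largest share of falls among these lists. All 16 genes had a difference below 0 (15 without normal array 1), with a median of -0.45, and 11 fell. Eci1, which moves double bonds in unsaturated fatty acids, fell by 1.24 ± 0.11 (adjusted p = 4.25e-10), Decr1, a reductase for the same fatty acids, fell by 1.49 ± 0.13 (adjusted p = 9.8e-10), and Acadl, which takes the first step on long chains, by 0.87 ± 0.11. Acsl1, which activates fatty acids and is abundant in fat cells, fell by 3.58 ± 0.54. The count of falls was 8 to 12 across the scaling alternatives and without each normal array.

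In the citrate cycle with pyruvate dehydrogenase 6 of 14 fell and none rose, with a median of -0.25. Suclg1, of succinyl-CoA synthetase, fell by 0.83 ± 0.11 (adjusted p = 1.56e-06), Pdha1, of pyruvate dehydrogenase, by 0.57 ± 0.11, Dld, shared by several dehydrogenases, by 0.36 ± 0.11 and Sucla2 by 0.32 ± 0.10. Without normal array 2 the 6 falls became 2. Among electron carriers outside the complexes 3 of 6 fell and 1 rose. Etfa, Etfb and Etfdh, which bring electrons from fatty acid oxidation to coenzyme Q, fell by 0.46, 0.62 and 0.51 (adjusted p = 0.0101, 0.0212 and 0.0121), and none of the 3 was called without normal array 2. Gpd2, the mitochondrial glycerol phosphate dehydrogenase, was at 8.67 ± 0.24 in normal tissue (n = 3) and 9.82 ± 0.17 in cancers (n = 33), a rise of 1.14 ± 0.10 (adjusted p = 7.66e-10).

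Other lists moved in both directions, as did all genes, of which 18% rose and 16.3% fell. Of the assembly factors of the chain that were not members, 1 of 32 rose and 2 fell: Coa3, for complex IV, rose by 1.10 ± 0.19 (adjusted p = 4.8e-05), while Coa5 and Timmdc1 fell by 0.45 and 0.24. Of the genes of coenzyme Q synthesis 2 of 12 rose and 3 fell, with Coq8a at -0.81 ± 0.24 and Coq4 at 0.36 ± 0.11, and none was called without normal array 2. Of regulators of mitochondrial biogenesis 3 of 15 rose and 2 fell, near the shares over all genes. Gabpa, an ETS factor that binds promoters of respiratory genes, rose by 0.56 ± 0.13 (adjusted p = 0.0011), Twnk, the mitochondrial DNA helicase, by 0.50 ± 0.14 and Tfb2m, a mitochondrial transcription factor, by 0.30 ± 0.09. The coactivator Ppargc1b and the receptor Esrra fell by 0.55 ± 0.21 and 0.46 ± 0.18. Nrf1 was 0.28 ± 0.12 (adjusted p = 0.069), Tfam 0.25 ± 0.11 (adjusted p = 0.0845) and Ppargc1a 0.01 ± 0.18. Of carriers, pores and import proteins 4 of 16 rose and 2 fell. The outer membrane pore Vdac1 rose by 0.95 ± 0.13 (adjusted p = 1.42e-06) and its relative Vdac3 fell by 0.32 ± 0.07, and of the ATP/ADP carriers Slc25a4 rose by 0.48 ± 0.11 and Slc25a5 fell by 0.36 ± 0.09. Vdac3 and Slc25a5 were not called after quantile normalization. Across the scaling alternatives and without each normal array, 1 to 3 regulators and 2 to 6 carriers and import proteins rose, and 0 to 2 of each fell.

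**Figure D5:**
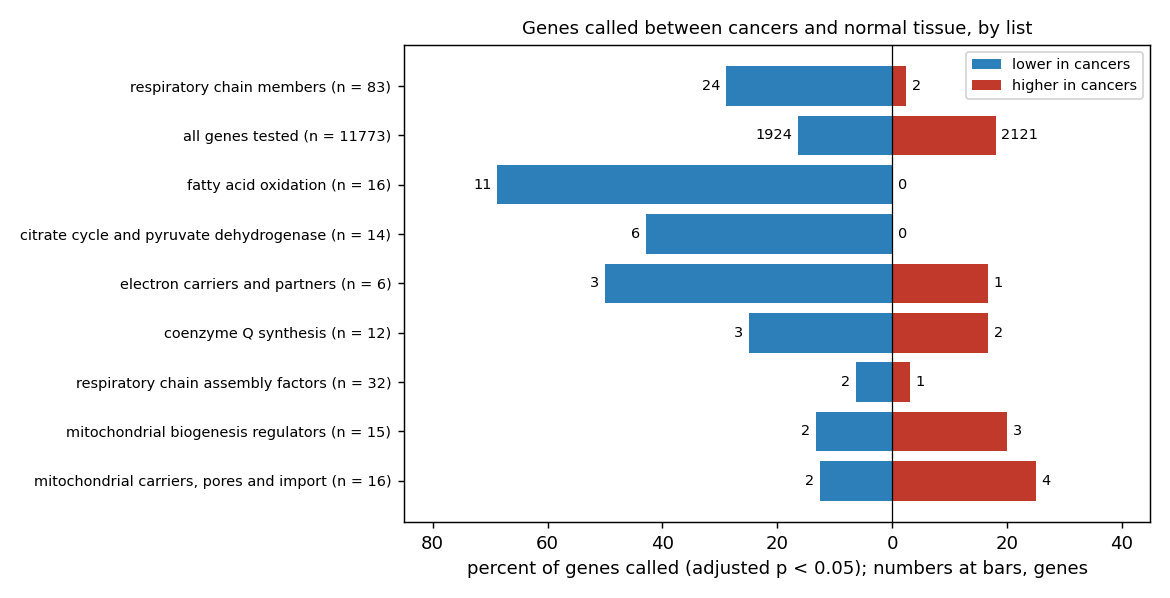
Percent of the genes of each list called lower (left) or higher (right) in 33 cancers than in 3 normal tissues, with the number of genes at each bar. Fatty acid oxidation has 11 of 16 genes lower and the respiratory chain members 24 of 83, against 1924 of 11773 genes tested. After quantile normalization the members have 14 of 83 lower, against 2023 of 11773 genes tested, a similar share.

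Markers of cell types differed between the groups as well. Of 13 adipocyte markers 12 fell, and the median difference of the 13 was -3.20. Their mean level was 10.76 to 11.46 in normal tissue and 7.50 to 8.36 in cancers, and their summed intensity 38872 to 56461 and 3485 to 11887. Adipoq was at 10.96 to 11.90 in normal tissue and 6.19 to 7.42 in cancers, and no value in the table was 0 (the lowest intensity was 0.0151). Of the brown fat markers Cidea fell by 3.51 ± 0.39, and Cpt1b (-0.26) and Zic1 (-0.12) were not called. All 8 endothelial markers fell, 5 of 9 macrophage and 2 of 9 fibroblast and matrix markers fell, 8 of 12 luminal markers rose and 1, Elf5, fell (no luminal marker fell after quantile normalization, with the signal ceiling or without any 1 normal array), and none of 10 skeletal muscle markers was called. Across the same alternatives 7 to 8 endothelial, 1 to 5 macrophage and 0 to 4 fibroblast and matrix markers fell and 2 to 9 luminal markers rose. In bulk tissue fewer cells of a type and less RNA per cell cannot be told apart. The part of the lower share of fat cells' RNA in the differences of the respiratory chain members and of fatty acid oxidation genes was not tested.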

How the data were processed

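The values are array intensities of 31099 probe sets in 36 samples, as deposited by the authors. Per the labels, biotin-labelled cRNA was hybridised; the sources used here do not name the software behind the intensities. Each array's 2% trimmed mean is 500.1 to 500.13, so the deposited intensities are scaled to a common level. Array medians were 7.67 to 8.05 (log2). No counts exist, so the number of arrays limits the precision.

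Probe sets were named through the platform annotation: 20832 had 1 symbol, 436 several and 9831 none. Probe sets above an intensity of 125.77 (the 40th percentile) on at least 3 arrays were kept, log2(intensity + 42.755) was taken (the pseudocount is the 20th percentile), and each gene used its probe set with the highest mean. limma 3.58.1 (R 4.3.3) fitted 1 mean for each of 10 groups over all 36 arrays, with lmFit and eBayes; adjusted p is Benjamini-Hochberg over 11773 genes, and errors are SE unless marked SD. Tests are two-sided. Cancers against normal tissue weighted the 33 cancers equally; H-ras mutation averaged the MNU and radiation plus MNU differences; radiation averaged 4 backgrounds. The single mutated PhIP cancer adds no estimate of spread. On simulated data for cancers against normal tissue, 79 of 100 genes changed by 1 (log2) and 42 of 100 changed by 0.5 were recovered among 11773 genes, with 2 false calls. No other gene was changed in the simulation, and its noise was independent between genes and arrays. In the data 4045 genes were called in this comparison, so these rates need not hold there.

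Members and gene lists were chosen with earlier results of these data known. Named members are the 10 largest falls and all rises past the threshold, the 3 smallest p of each other comparison, isoform pairs and core subunits; up to 4 genes per list have the smallest adjusted p, and other names were chosen after their values were seen. Of probe sets with several symbols, 6 would match the rule and were left out. Alternatives were other pseudocounts, no filter, quantile normalization, median centring, the mean of all probe sets, the replicate number as a block, each array's signal ceiling (a percentile near the top of its values) as a covariate, array weights, and each array left out. The labels give no batch or date. Promoter sequences are RefSeq's for GRCr8.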

Additional observations from a re-analysis of the deposited data

Results flagged for a closer look

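Among the named members, 240 groups of 4 or 5 samples were checked for 1 array standing apart from the rest of its group, and 13 did; chance alone gives about 1 in 20. Radiation replicate 1 was high in Ndufa3 (11.42, others 10.96 to 11.01), Cox6b1 (12.28, others 11.93 to 11.96), Uqcrh (12.93, others 12.68 to 12.70), Ndufs3 (10.96, others 10.67 to 10.71) and Ndufv2 (11.81, others 11.53 to 11.57). MNU nonmutated replicate 4, the array with the hexokinase 3'/5' ratio of 12.3, was high in Cox6b1 (12.39, others 11.87 to 11.89) and Ndufs3 (11.25, others 10.48 to 10.57). Radiation plus MNU nonmutated replicate 2 was low in Atp5me (10.50, others 10.57 to 10.58), Cox6a1 (12.01, others 12.37 to 12.40) and Atp5mc3 (12.64, others 12.98 to 13.01). MNU mutated replicate 1 was high in Ndufb9 (12.33, others 12.04 to 12.08). After radiation plus PhIP, replicate 4 was high in Sdhb (11.64, others 11.47 to 11.49) and replicate 1 was low in Uqcrc2 (11.78, others 11.93 to 11.94). Without radiation replicate 1 or without radiation plus MNU nonmutated replicate 2, 24 members fell and 2 rose.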

How the results depend on the processing

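With 3 normal arrays, single arrays and scaling set the counts. The 24 members that fell became 14 after quantile normalization (all 14 among the 24), when 17.2% of all genes fell. They became 14 (13 of them among the 24) with the signal ceiling as a covariate, when 11.9% of all genes fell. They became 22 after median centring, when 17.8% of all genes fell. When 1 array was left out they became 13 (without normal replicate 2) to 26 (without MNU nonmutated replicate 4). The 2 that rose became 3 after quantile normalization (Ndufaf4, Cox6b2 and Uqcrh), 1 after median centring, 1 with the signal ceiling and 1 to 3 when 1 array was left out. The cause was not tested. Over all genes, 1924 fell and 2121 rose; the split was 2090 and 1527 after median centring, which lowered the median of all genes from 0.02 to -0.02. The median member difference of -0.15 ranged from -0.20 to -0.04 over the settings and stayed below 0. With array weights the F test over nonmutated groups called 5 members and the spontaneous comparison 3; no other alternative called a member in the H-ras, interaction, radiation, spontaneous or F comparisons.

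Over all 83 members the sign turned in 20 after quantile normalization, in 7 with the signal ceiling, and in 15 when any 1 array was left out (9 without normal replicate 2). Of the members named by the rule, it turned after quantile normalization for Cox7a2l (0.11), Ndufa4 (1e-04), Sdha (0.0059), Uqcrc1 (0.0011), Uqcrc2 (0.012), Atp5f1a (0.045) and Atp5f1b (0.03), and with the signal ceiling for Cox7a2l (0.038) and Uqcrfs1 (-0.056). When 1 array was left out, the difference of named members ranged over 0 in Ndufs1 (-0.36 to 0.029), Ndufs3 (-0.13 to 0.14), Ndufs8 (-0.22 to 0.090), Sdha (-0.16 to 0.024), Uqcrc2 (-0.21 to 0.057) and Uqcrfs1 (-0.061 to 0.17). The replicate numbers gave no sign of pairing the samples, though this check cannot exclude it. Deviations of same-numbered arrays correlated at -0.498 to 0.394 (median 0), and those of other arrays at -0.391 to 0.513 (median 0.001). Of 35 arrays, 8 correlated best with their own number. With the replicate block, 23 members fell and 2 rose.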

Other observations

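Of 12 genes known to be induced by low oxygen, 4 rose and 1 fell in cancers. Egln3, an oxygen-sensing hydroxylase, was at 8.52 ± 0.25 (SD, n = 3) in normal tissue and 10.15 ± 0.94 (SD, n = 33) in cancers, a difference of 1.63 ± 0.51 (SE, limma adjusted p = 0.015). The glycolytic enzyme Pgk1 rose by 0.63 ± 0.18 (adjusted p = 0.00711) and Pdk1, a kinase that turns off pyruvate dehydrogenase, by 0.44 ± 0.13 (adjusted p = 0.0132). Ndrg1 fell by 1.78 ± 0.27 (adjusted p = 8.65e-06). Without normal replicate 1, 1 hypoxia gene was called as higher, and without normal replicate 2 or 3, 2 were. Among 15 genes of the cell cycle, 8 passed the test as higher, with Top2a, a topoisomerase of dividing cells, at 0.97 ± 0.29 (adjusted p = 0.00966) and the replication licensing factor Mcm2 at 0.82 ± 0.25 (adjusted p = 0.012). None of the 15 was called in the fit adjusted for the signal ceiling or without normal replicate 3, 1 was without normal replicate 2 and 4 were after median centring.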
